A study of Mus musculus with 6 samples.

Results

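The interleukin 1 (IL-1) family genes described here are 9 rows of the deposited expression table, found by gene symbol among its 18341 genes. They are the ligand genes Il1a, Il1b and Il18, the receptor antagonist gene Il1rn, the receptor genes Il1r1, Il1rap and Il1rl1, and the decoy genes Il1r2 and Il18bp. All 9 passed the filter for testing, a mean of at least 1 CPM (a gene's reads relative to all reads of its library, on a fixed scale) over the libraries. By the series design the cells were monocytes sorted from tumours that had grown under the skin of C57BL/6 mice for 13 days. A label of the samples gives the tumour line as their source instead. The mice had received B16.F10 cells, a mouse melanoma line. In the BAFF group (3 libraries) the injected cells overexpressed BAFF, a cytokine of the tumour necrosis factor superfamily, and in the control group (3 libraries) they were control cells. The sources used here give neither the age of the mice, the sorting markers and the expression vector nor whether a line was 1 clone or animals were pooled. It is not said that each library is a mouse of its own, so p-values speak only of these samples. On the deposited scale, the p-values and SEs of single genes rest on a spread shared by genes of like level, not on each gene's own.

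IL-1 alpha and IL-1 beta are inflammatory cytokines that bind the receptor encoded by Il1r1, which then recruits the accessory chain encoded by Il1rap and signals through MYD88 and IRAK kinases to NF-kB. Brakes act outside the cell: the antagonist encoded by Il1rn occupies the receptor without signalling, and the decoy encoded by Il1r2 binds ligand but has no signalling domain. IL-18 is a related cytokine that is neutralised by the binding protein encoded by Il18bp, and Il1rl1 encodes ST2, the receptor of IL-33. Monocytes and neutrophils are major sources of IL-1 beta and of the antagonist.

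In the BAFF group the genes of both IL-1 brakes rose. Il1r2 and Il1rn rose on the deposited scale and after rescaling, Il1rap rose after rescaling, and none of the 9 fell. With 1 library left out, Il1rn kept its call in 2 of 6 fits and Il1r2 in 5 of 6 on the deposited scale. After rescaling both kept it in 6 of 6. Il1b was higher on average but did not pass, which does not set it apart from the brakes. Il1a, Il18, Il18bp, Il1r1 and Il1rl1 did not pass either.

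The upstream sequences of the genes that rose most, Il1r2 and Il1rn, are shown with those of Il1a and Il1b, the ligand genes, which lie next to each other on chromosome 2. Each is the 250 bases before an annotated transcription start, from RefSeq (GRCm38.p6), 5′ to 3′ on the gene's strand. Capitals mark a TATA box, the letters TATAAA on the gene's strand. All 9 genes matched the RefSeq promoter table, with 13 starts, of which Il1rn has 3. The first and the third Il1rn start are shown, because the window of the second overlaps that of the third.

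Il1r2, chr1:40085843-40086092, plus strand: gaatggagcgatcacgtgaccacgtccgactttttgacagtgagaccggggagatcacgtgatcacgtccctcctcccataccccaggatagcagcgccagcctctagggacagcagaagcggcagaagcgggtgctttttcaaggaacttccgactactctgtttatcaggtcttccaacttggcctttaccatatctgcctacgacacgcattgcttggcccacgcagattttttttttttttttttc
Il1rn, start 1, chr2:24336610-24336859, plus strand: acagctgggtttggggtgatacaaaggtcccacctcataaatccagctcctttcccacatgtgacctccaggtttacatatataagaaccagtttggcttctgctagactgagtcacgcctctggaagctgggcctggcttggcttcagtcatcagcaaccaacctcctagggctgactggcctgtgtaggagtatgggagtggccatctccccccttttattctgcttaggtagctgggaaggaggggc
Il1rn, start 3, chr2:24345121-24345370, plus strand: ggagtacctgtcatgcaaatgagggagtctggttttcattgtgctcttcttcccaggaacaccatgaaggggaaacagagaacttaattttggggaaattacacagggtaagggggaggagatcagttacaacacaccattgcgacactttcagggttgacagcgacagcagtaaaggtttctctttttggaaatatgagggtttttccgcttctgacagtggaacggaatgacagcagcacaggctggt
Il1b, chr2:129371140-129371389, minus strand: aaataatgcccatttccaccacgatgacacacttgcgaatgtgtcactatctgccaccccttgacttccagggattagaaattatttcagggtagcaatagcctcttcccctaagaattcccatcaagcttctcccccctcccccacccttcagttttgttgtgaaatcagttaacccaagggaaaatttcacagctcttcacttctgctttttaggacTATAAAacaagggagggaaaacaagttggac
Il1a, chr2:129309973-129310222, minus strand: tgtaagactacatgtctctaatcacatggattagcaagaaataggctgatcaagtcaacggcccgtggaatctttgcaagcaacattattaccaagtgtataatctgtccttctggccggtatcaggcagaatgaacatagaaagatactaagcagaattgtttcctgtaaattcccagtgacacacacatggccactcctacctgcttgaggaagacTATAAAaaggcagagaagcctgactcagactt

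The Il1a and Il1b windows each held TATAAA once, beginning at position -32 and -31 relative to the start, and no other window held it. Of all 32851 windows of this length in the table, 7.59% held it. A C/EBP motif (TTGCNNAA, either strand, which can overlap the other motifs) was found in 3 of the 13 windows, those of Il18bp and of 1 start each of Il1r1 and Il1rl1, against 9.56% of all windows. The kappa B motif bound by NF-kB was found in 1 of 13, a start of Il1r1, against 7.25% of all. These motifs were chosen after the windows had been seen, and a match describes letters, not binding.

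Values are CPM as deposited, and the libraries differed in scale. The listed genes held 39.8% to 66.1% of each library's CPM total, least in control tumours 3 and 2, which carried 43052 and 27017 CPM of the ribosomal RNA gene CT010467.1 against 299 to 5880 CPM elsewhere. Depth, estimated from the step between low values, was 4.72 to 27.6 reads per CPM. On the deposited values the median log2 fold change over the 12824 tested genes was 0.23. It was 0.01 after median-of-ratios size factors (RLE from here on), which bring it near 0 by construction. Changes are therefore given on both scales, from limma-trend on log2(CPM + 1) with Benjamini-Hochberg adjustment over all tested genes, as log2 fold changes (BAFF minus control) ± SE. They understate the change of genes at a few CPM.

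The sorted cells carried monocyte transcripts. All 9 markers of Ly6C-high monocytes were present and summed to 4091 to 4388 CPM in the BAFF group and 2267 to 3902 CPM in controls, led by F13a1 and Fn1. Macrophage markers (9 of 9, led by Mrc1 and Apoe) summed to 2430 to 2713 against 2384 to 5049 CPM. After RLE their sums were 2260 to 2541 against 3459 to 3985 CPM, lower in every BAFF tumour library than in any control. Melanoma genes (7 of 7, led by Dct and Tyrp1) summed to 72.7 to 154 against 382 to 654 CPM, higher in every control library than in any BAFF tumour library. Fibroblast and endothelial markers (10 of 10, led by Col3a1 and Col1a2) were highest in control tumour 1, at 279 CPM, against 47.6 to 99.8 CPM for the other 5 libraries. T and NK cell markers (9 of 9, led by Cd8a and Nkg7) summed to 7.83 to 22.5 CPM and B cell markers (3 of 4 in the table, led by Cd79b) to 1.06 to 4.06 CPM over all libraries. Dendritic cell markers (8 of 8, led by Cd209a and Ccr7) summed to 38.5 to 48.1 CPM in the BAFF group and 19.7 to 40.7 CPM in controls. After RLE the sums were 35.4 to 45.0 against 21.7 to 33.2 CPM. Of the 7 tested, Flt3 and Cd209a rose on both scales (1.81% and 7.18% of all tested genes) and 0 fell. Their part in the IL-1 family values was not tested. No mast cell or basophil marker was matched, and these cells are not analysed here.

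Compared per kilobase of annotated exon (GENCODE M21), Il1b was the most abundant member. It averaged 881 ± 209 CPM per kb (SD, n = 3) in the BAFF group and 534 ± 221 in controls, above Il1rn in 6 of 6 libraries without overlap of their ranges. Il1rn followed at 115 ± 23.8 and 54.3 ± 17.3 CPM per kb, above Il1a in 6 of 6 libraries although their ranges over libraries overlapped. Then came Il1a, Il1r2, Il18bp and Il18, with means over the 6 libraries of 28.9, 18.8, 9.04 and 8.93 CPM per kb. Neighbours among these overlapped in range, and the lower one exceeded the higher in some libraries. Il1rap stood lower, at 1.89 CPM per kb, and Il1rl1 (0.304) and Il1r1 (0.179) were lowest and overlapped. Per length, Il1b, Il1rn and Il1r2 were thus all far above Il1r1, the signalling receptor gene. The length counts all annotated exons of a gene, not those of the transcripts present, so the order can depend on the annotation.

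**Figure D1:**
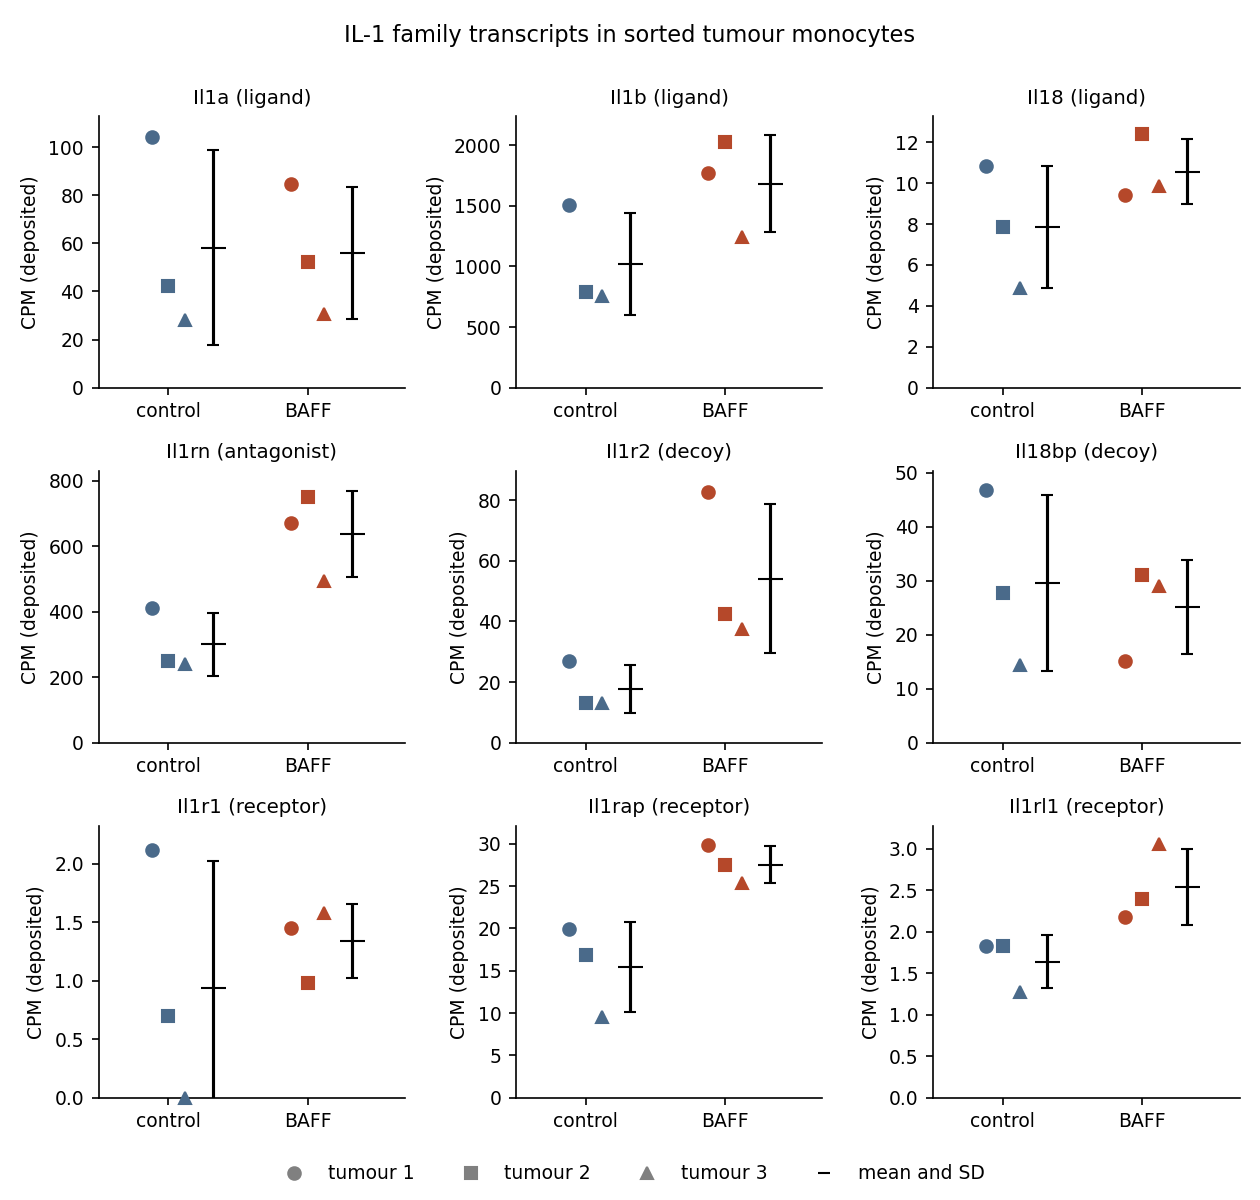
Deposited CPM of the 9 genes (vertical axes, each from 0) in control and BAFF tumour libraries, with 1 point per library and the mean ± SD as black bars, the Il1r1 control bar being clipped at 0. All 3 BAFF tumour libraries lie above all 3 controls for Il1rn, Il1r2, Il1rap and Il1rl1, and the groups overlap for the other 5 genes.

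Of the ligands, Il1b encodes the cytokine precursor that caspase 1 matures. It stood at 1768, 2028 and 1245 CPM in BAFF tumours 1, 2 and 3 and at 1504, 789.9 and 759 CPM in control tumours 1, 2 and 3. Control tumour 1 lay above BAFF tumour 3, so the groups overlapped. The difference was 0.77 ± 0.33 on the deposited scale (limma adjusted p = 0.1796) and 0.51 ± 0.18 after RLE (adjusted p = 0.0656), which missed the threshold on both. After RLE it passed without BAFF tumour 3 (adjusted p = 0.0131), and on the deposited scale without control tumour 1 (adjusted p = 0.000579).

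Il1a encodes IL-1 alpha, which is active without that maturation. It stood at 84.9, 52.3 and 30.6 CPM in the BAFF group and at 104, 42.1 and 28.2 CPM in controls. The libraries of each group spread over a similar range and no difference was detected. The log2 fold change was 0.04 ± 0.32 on the deposited scale and -0.20 ± 0.31 after RLE (limma adjusted p = 0.954 and 0.709).

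Il18 stood at 9.43, 12.4 and 9.87 CPM in the BAFF group and at 10.8, 7.86 and 4.87 CPM in controls. Only control tumour 1 reached into the BAFF range. The difference did not pass (0.43 ± 0.31 and, after RLE, 0.21 ± 0.15; limma adjusted p = 0.5099 and 0.359).

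Among the inhibitors, Il1r2, the decoy receptor gene, changed most of the 9. It stood at 82.5, 42.3 and 37.5 CPM in BAFF tumours and at 26.8, 13.2 and 13.1 CPM in control tumours. Every BAFF tumour library was above every control, and BAFF tumour 1 was the highest. The rise was 1.55 ± 0.32 (limma adjusted p = 0.000165), and 1.31 ± 0.25 after RLE (adjusted p = 0.00379). On the deposited scale the call was lost without BAFF tumour 1 (adjusted p = 0.117). After RLE it held in 6 of 6 fits that left out 1 library (adjusted p 0.0032 to 0.0149). Without both control tumours 2 and 3, it was 1.10 and missed (adjusted p = 0.0686).

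Il1rn, the receptor antagonist gene, stood at 669, 751 and 493 CPM in the BAFF group and at 411, 249.95 and 240.5 CPM in controls. The groups did not overlap, and control tumour 1 was the highest control. It rose by 1.11 ± 0.32 (limma adjusted p = 0.0179), and 0.85 ± 0.15 after RLE (adjusted p = 0.00205). On the deposited scale it missed when BAFF tumour 1, 2 or 3 was left out (adjusted p = 0.256, 0.37 and 0.0933) and when control tumour 2 was (adjusted p = 0.308). After RLE it held in 6 of 6 such fits (adjusted p 0.000801 to 0.0148), and without both control tumours 2 and 3 (0.81, adjusted p = 0.0316).

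Il18bp, the IL-18 decoy gene, did not pass. It stood at 15.1, 31.1 and 29.02 CPM in the BAFF group and at 46.8, 27.7 and 14.4 CPM in controls. Both the highest and the lowest value were in controls. The log2 fold change was -0.15 ± 0.32, and -0.39 ± 0.24 after RLE (limma adjusted p = 0.828 and 0.3099). Its exons share 80 bases with Numa1 on the opposite strand in GENCODE M21. The library kit does not mark strand, so reads there cannot be assigned. Numa1 stood at 48.4 ± 7.43 and 51.8 ± 19.5 CPM.

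Of the receptors, Il1rap encodes the accessory chain shared by the IL-1, IL-33 and IL-36 receptors. It stood at 29.9, 27.4 and 25.4 CPM in the BAFF group and at 19.98, 16.9 and 9.53 CPM in controls. The BAFF tumour libraries lay close together and all above the controls. The difference was 0.85 ± 0.32 on the deposited scale and did not pass (limma adjusted p = 0.0988). After RLE it rose by 0.61 ± 0.13 (adjusted p = 0.00722), and in 6 of 6 fits that left out 1 library (adjusted p 0.0061 to 0.0365). In only the 4 shallower libraries (without BAFF tumour 2 and control tumour 1) it was 0.63 and missed (adjusted p = 0.0635).

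Il1r1, the signalling receptor gene, was near the detection limit. It stood at 1.45, 0.979 and 1.58 CPM in the BAFF group and at 2.12, 0.702 and 0 CPM in controls, which rest on 0 to 58 estimated reads. Control tumour 1 was the highest and control tumour 3, where 0 reads allow up to 0.636 CPM, the lowest. Il1r1 averaged 1.34 CPM in the BAFF group and 0.941 CPM in controls, so it passed the filter only through the BAFF group. The difference was 0.41 ± 0.30 (limma adjusted p = 0.507), and 0.40 ± 0.32 after RLE (adjusted p = 0.442), which at this depth is not a detectable change. The fibroblast and endothelial sum was also highest in control tumour 1 (279 CPM). Its part in the Il1r1 values was not tested.

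Il1rl1, the ST2 gene, stood at 2.18, 2.39 and 3.06 CPM in the BAFF group and at 1.83, 1.83 and 1.27 CPM in controls, on 6 to 66 estimated reads. The groups did not overlap, but the difference of 0.42 ± 0.30 (limma adjusted p = 0.504), or 0.26 ± 0.20 after RLE (adjusted p = 0.422), did not pass. Soluble and membrane-bound ST2 come from different transcripts of this gene and cannot be told apart in gene-level values.

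By counts, 2 of the 9 genes rose and 0 fell on the deposited scale in limma, where 1.81% of all tested genes rose and 3.5% fell. At an unadjusted p under 0.05, 4 were higher and 0 lower, where 9.54% of all tested genes were higher and 6.47% lower. After RLE 3 of 9 rose and 0 fell, where 7.18% of all tested genes rose and 9.91% fell, and again 4 were higher and 0 lower at an unadjusted p under 0.05 (14.8% and 15.8% of all). The count on the deposited scale turned on single libraries. Without control tumour 1, 6 of the 8 tested passed as higher (Il1a, Il1b, Il18, Il1rn, Il1rap and Il1r2), as did 4615 of 12591 genes (36.7%), and without BAFF tumour 1 none did. After RLE 3 or 4 passed in every fit that left out 1 library. The groups did not overlap, with BAFF tumours higher, for 4 of the 9 on the deposited scale (11.4% of all tested genes) and 5 of 9 after RLE (17.3% of all). The median log2 fold change of the 9 was 0.43, against 0.23 for all tested genes, and 0.40 against 0.01 after RLE. The 0.40 is the value of Il1r1, which passed the filter only through the BAFF group.

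**Figure D2:**
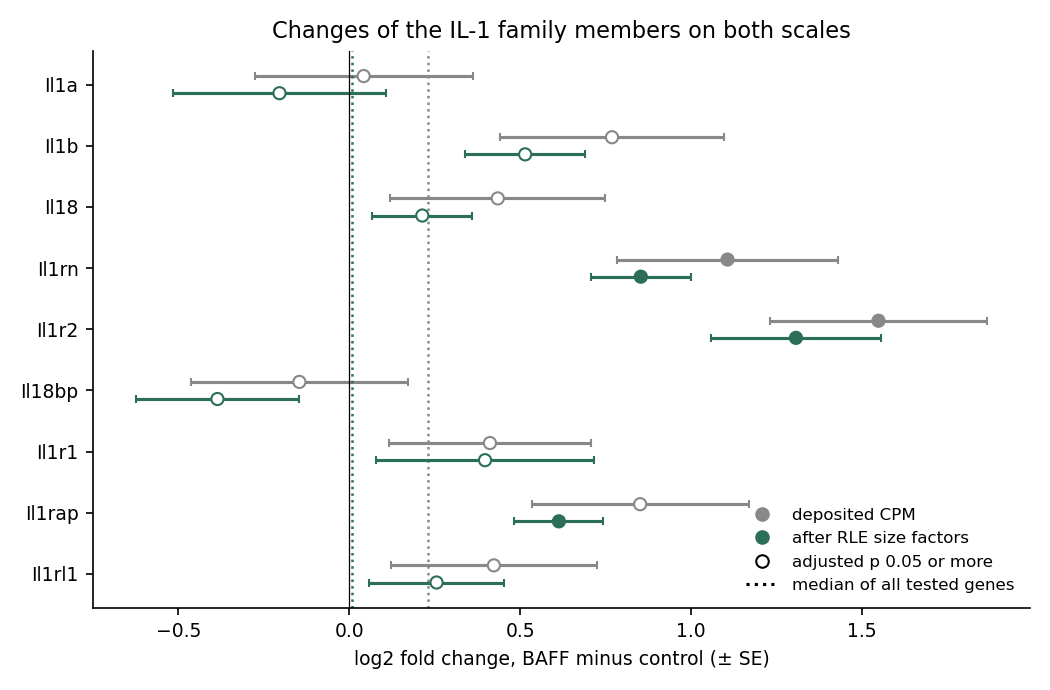
Log2 fold change of each gene (BAFF minus control, horizontal axis, bars ± SE) on deposited CPM and after RLE size factors, with filled points at an adjusted p under 0.05 and dotted lines at the median of all tested genes. Il1rn and Il1r2 are filled on both scales, Il1rap only after RLE, and Il1a and Il18bp lie below the median on both.

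Ratios of 2 transcripts within a library do not move with that library's scale, so they compare inhibitor with ligand directly. Of 5 pairs, 4 had both genes above the floor of 3 reads in every library. Il1r2 to Il1r1 was left out because Il1r1 was at 0 in control tumour 3. The smallest two-sided p that an exact permutation test allows with 3 libraries against 3 is 0.1, and each p was adjusted over the 4 pairs. No pair could therefore fall under 0.05, so the test cannot decide whether a ratio differed.

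Il1rn was compared with Il1b, the ligand gene. The ratio of Il1rn to Il1b CPM was 0.379, 0.370 and 0.396 in BAFF tumours 1, 2 and 3 and 0.273, 0.316 and 0.317 in control tumours 1, 2 and 3. The BAFF tumour ratios lay in a narrow band above every control. The mean ratio was 1.27-fold higher (log2 difference 0.34), at the smallest p possible here (exact permutation p = 0.1, adjusted p = 0.2). The difference lay between 0.27 and 0.38 when 1 library was left out.

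The ratio of Il1rn to Il1a was 7.88, 14.4 and 16.1 in the BAFF group and 3.94, 5.93 and 8.54 in controls, a difference of 1.06 on the log2 scale (exact permutation p = 0.2, adjusted p = 0.2). BAFF tumour 1 fell below control tumour 3, so the groups overlapped. The ratio of Il1a to Il1b differed by -0.72 and also overlapped (exact permutation p = 0.2, adjusted p = 0.2).

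For IL-18, the binding protein transcript was compared with its ligand. The ratio of Il18bp to Il18 was 1.60, 2.51 and 2.94 in the BAFF group and 4.32, 3.52 and 2.96 in controls. All 3 BAFF tumour ratios were lower, but those of BAFF tumour 3 and control tumour 3 were almost equal, and the latter rests on 68 and 23 estimated reads, too few to order them. The log2 difference of -0.64 was at the smallest p possible here (exact permutation p = 0.1, adjusted p = 0.2), and it was -0.39 without BAFF tumour 1.

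**Figure D3:**
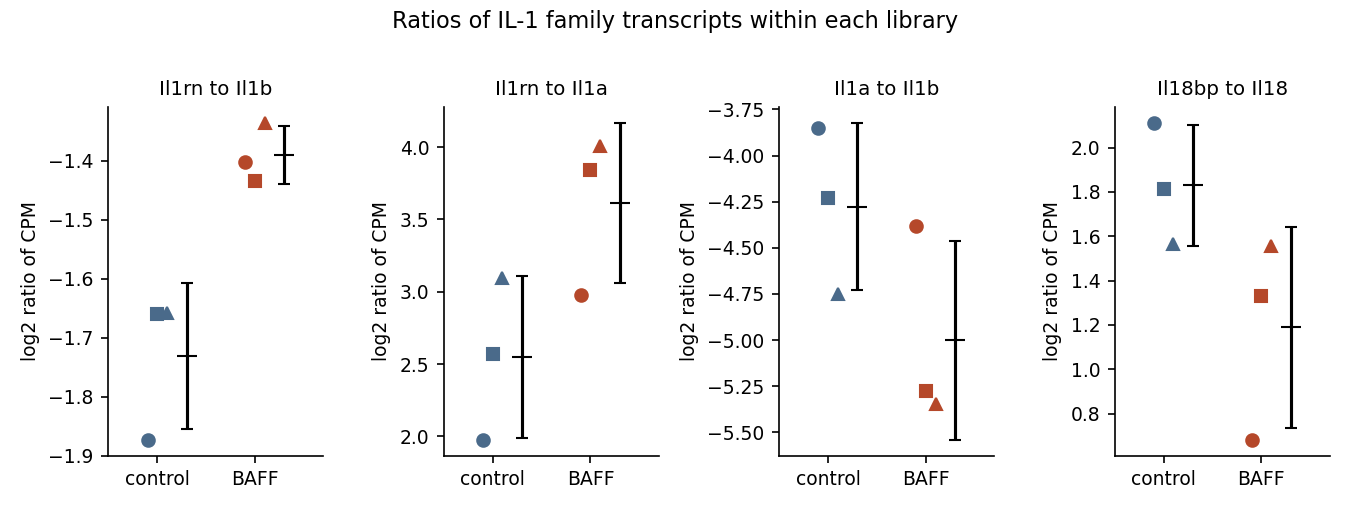
Log2 ratio of CPM of 2 genes within each library (vertical axes, with different ranges that do not start at 0), with circles, squares and triangles for tumours 1, 2 and 3 and black bars for the mean ± SD. BAFF tumour libraries lie above all controls for Il1rn to Il1b (0.370 to 0.396 against 0.273 to 0.317 as plain ratios) and below them for Il18bp to Il18, with overlap in the other pairs.

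The rest of the IL-1 system was read from 4 lists of other genes. Over the lists, 4 of 60 tested genes rose and 0 fell in limma on the deposited scale (1.81% and 3.5% of all tested genes). After RLE 14 rose and 2 fell (7.18% and 9.91%), and the same shares apply to each list below. At an unadjusted p under 0.05, 18 were higher and 1 lower on the deposited scale (9.54% and 6.47% of all tested genes), and 20 and 2 after RLE (14.8% and 15.8%). Their median log2 fold change was 0.45 and 0.21 after RLE, against 0.23 and 0.01 for all tested genes. On the deposited scale none of the 59 then tested passed as higher when any BAFF tumour library or control tumour 2 was left out, and 47 passed without control tumour 1. With no filter on low values Peli2 and Cxcl2 missed (adjusted p = 0.0687 and 0.0793). After RLE, 10 to 13 passed as higher when 1 library was left out. Without both control tumours 2 and 3 only Irak2, Mefv and Nos2 did, and those that missed include Il18rap (adjusted p = 0.0574), Nfkb2 (0.0765), Nfkb1 (0.0893), Cxcl2 (0.0896), Relb (0.178), Sod2 (0.219), Nlrp3 (0.267) and Peli2 (0.386). Genes that passed only after RLE and lie outside the naming rule were picked with their values known.

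Of the other ligands and receptors, 5 of 12 were in the table, 4 were tested and 1 rose, on both scales. Il18rap, the signalling partner chain of the IL-18 receptor, stood at 12.96, 10.7 and 13.5 CPM in the BAFF group and at 8.05, 5.34 and 3.39 CPM in controls. Every BAFF tumour library was above every control, a rise of 1.08 ± 0.31 (limma adjusted p = 0.0165) and 0.87 ± 0.16 after RLE (adjusted p = 0.00317). Il1rl2, the IL-36 receptor gene, stood at 5.13 ± 0.927 and 3.64 ± 0.841 CPM (SD, n = 3 each), without a call. Il33 (2.33 ± 1.17 and 2.67 ± 3.72 CPM) and Sigirr, an inhibitory receptor gene (0.965 ± 0.129 and 1.06 ± 1.03 CPM), were scarce and not called either. Sigirr passed the filter only through the control group. Il18r1, the ligand-binding chain of the IL-18 receptor, had means of 0.839 and 0.896 CPM, too low to be tested.

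Among genes of receptor signalling, 1 of 18 rose on the deposited scale, and 5 rose and 1 fell after RLE. Peli2, which encodes a ubiquitin ligase acting on IRAK proteins, stood at 7.77, 3.95 and 4.64 CPM against 3.84, 1.83 and 1.48 CPM, a rise of 0.95 ± 0.31 (limma adjusted p = 0.0403) and 0.78 ± 0.24 after RLE (adjusted p = 0.0409). It passed in only 1 of 6 fits that left out 1 library, and 2 of 6 after RLE. Irak2, a kinase that sustains IL-1 and Toll-like receptor signalling, stood at 113, 113 and 109 CPM against 79.8, 57.4 and 40.01 CPM. The 3 BAFF tumour values of Irak2 were nearly equal and all above the controls, with 0.96 ± 0.32 on the deposited scale (adjusted p = 0.052) and a rise of 0.71 ± 0.09 after RLE (adjusted p = 0.000348). Chuk (0.40), Ikbkb (0.36) and Traf6 (0.35), which encode kinases and a ligase that activate NF-kB, also rose after RLE, and Ecsit, an adaptor of TRAF6, fell (-0.66). With 1 library left out, Chuk and Ikbkb passed in 2 of 6 RLE fits each, Ecsit in 3 and Traf6 in 0. Irak3, the inhibitory kinase, was not called (20.3 ± 1.44 and 13.3 ± 5.95 CPM; 0.42 after RLE, adjusted p = 0.113).

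Of 15 genes of IL-1 maturation and release, 1 rose on the deposited scale and 3 after RLE, and 0 fell. Mefv, which encodes the inflammasome sensor pyrin, stood at 109, 121 and 92.1 CPM against 78.9, 45.9 and 35.1 CPM, a rise of 1.07 ± 0.32 (limma adjusted p = 0.0219) and 0.82 ± 0.11 after RLE (adjusted p = 0.000596). The groups did not overlap. Nlrp3, the sensor that drives IL-1 beta release, stood at 233, 244 and 239 CPM against 221, 143 and 101 CPM, and rose only after RLE (0.44 ± 0.10, adjusted p = 0.00781). Casp4, the caspase of the non-canonical pathway, rose after RLE as well (0.40 ± 0.12, adjusted p = 0.0428), but passed in 2 of 6 RLE fits that left out 1 library. Nlrc4, another sensor, was not called at 17.05 ± 1.37 and 12.1 ± 5.80 CPM. Casp1, the enzyme that matures both IL-1 beta and IL-18, stood at 36.7 ± 9.19 and 30.7 ± 13.6 CPM (0.07 after RLE, adjusted p = 0.809).

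Of 23 tested genes that IL-1 can induce, 1 rose on the deposited scale, and 5 rose and 1 fell after RLE. Cxcl2, a neutrophil attractant gene, stood at 1123, 1191 and 799 CPM against 742, 439 and 391 CPM. The lowest BAFF tumour library lay just above the highest control, and the rise was 1.02 ± 0.33 (limma adjusted p = 0.0361) and 0.77 ± 0.15 after RLE (adjusted p = 0.00401). The NF-kB subunit genes Nfkb1 (0.57 ± 0.12), Relb (0.54 ± 0.12) and Nfkb2 (0.54 ± 0.10) and the superoxide dismutase gene Sod2 (0.51 ± 0.12) rose after RLE, and the adhesion gene Vcam1 fell (-0.91 ± 0.21). Nos2, inducible nitric oxide synthase, was not called (0.64 after RLE, adjusted p = 0.0623), nor was Saa3, a serum amyloid gene (4.58 ± 4.20 and 2.11 ± 2.32 CPM). Tnf and Il6 did not pass on either scale (after RLE, -0.02 and 0.27; adjusted p = 0.945 and 0.278). Csf3, also not called, averaged 1.42 and 0.717 CPM and passed the filter only through the BAFF group. These genes also respond to other NF-kB stimuli, so the list does not measure IL-1 alone.

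**Figure D4:**
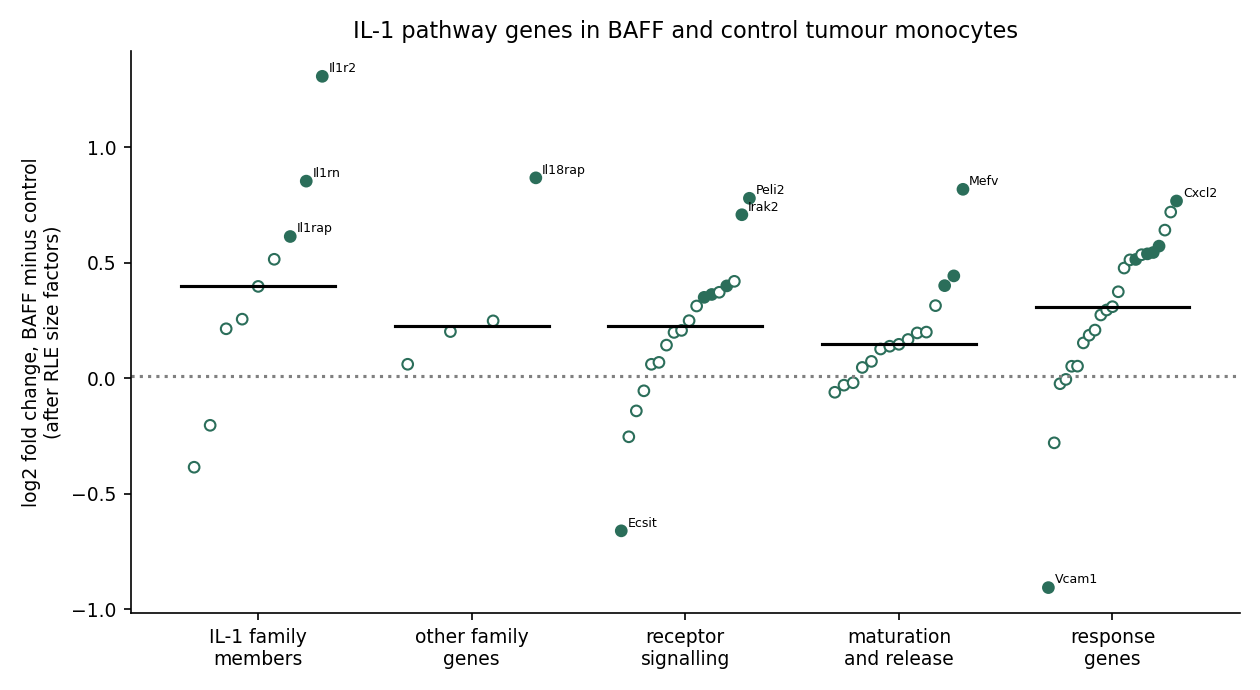
Log2 fold change after RLE size factors (vertical axis) of each tested gene, in 5 columns for the 9 IL-1 family genes and the 4 pathway lists, with filled points at an adjusted p under 0.05, black lines at each list's median and a dotted line at the median of all tested genes. Named points are called genes past 0.6 in either direction, with Il1r2 (1.31) the highest and Vcam1 (-0.91) the lowest.

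Some of the 9 genes overlap genes of the opposite strand, whose reads cannot be told apart there without strand. Il1rap shares 552 exon bases with Gm20319, which is not analysed here, and Il1a shares 222 with Gm14023, which averaged 0.254 and 0.169 CPM in the BAFF and control groups. Il1b shares 25 with its antisense gene Il1bos, named after its values were seen. Il1bos stood at 2.07, 1.59 and 1.68 CPM in the BAFF group and at 1.02, 0 and 0.423 CPM in controls, on 0 to 44 estimated reads. It averaged at least 1 CPM only through the BAFF group, so no test is given.

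Markers of other cells moved in the same libraries. Neutrophils, which transcribe Il1r2, Il1rn and Il1b at high levels, had 9 of 12 markers in the table. They summed to 194, 153 and 147 CPM in BAFF tumours 1, 2 and 3 and to 151, 61.6 and 64.1 CPM in control tumours 1, 2 and 3, or 134 to 182 against 68.2 to 119 CPM after RLE. Of the 8 tested, 5 rose on the deposited scale and 3 after RLE (1.81% and 7.18% of all tested genes). The 5 were S100a8, S100a9, Cxcr2, Lcn2 and G0s2, and the 3 were Csf3r, Retnlg and G0s2. Only G0s2 rose on both scales. The most abundant markers were Csf3r (86.3 ± 15.9 and 53.9 ± 24.4 CPM) and S100a9 (31.2 ± 20.01 and 16.05 ± 12.9 CPM). The neutrophil sum and Il1r2 were both highest in tumour 1 of each group. None of the 9 neutrophil markers was at 0 in any library, and their part in the Il1r2 and Il1rn values was not tested.

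Ly6C-high monocyte markers also rose, 3 of 9 on the deposited scale and 6 of 9 after RLE (1.81% and 7.18% of all tested genes). Of the macrophage markers 2 and 6 of 9 fell (3.5% and 9.91% of all tested genes). The part of both marker sets in the values, and that of the melanoma genes that were higher in controls, was not tested either. In bulk samples fewer cells of a type and less RNA per cell cannot be told apart. Dissociation and early response genes, led by Fos and Dusp1, summed to 5819 to 6079 CPM in the BAFF group and 3128 to 4888 CPM in controls, and to 5177 to 5687 against 3858 to 4668 CPM after RLE. Of these 12 genes 2 rose, and 4 after RLE (1.81% and 7.18% of all tested genes). Il1b, Cxcl2 and Nlrp3 are themselves induced by handling of myeloid cells, and the part of such a response was not tested.

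Genes with a profile most like those of the 2 called genes were found by Pearson's r of log2(CPM + 1) after RLE over the 6 libraries. For Il1rn they were Ndel1, a dynein regulator gene (r = 0.998), the predicted gene Gm12263 (0.995) and Clec4n, the Dectin-2 gene (0.994). For Il1r2 they were Ptges2, a prostaglandin E synthase gene (0.994), the kinase gene Stk24 (0.989) and Inafm2 (0.989). Of 12823 genes compared, 180 had an r over 0.95 with Il1rn and 96 with Il1r2. The 6 genes were chosen for a profile like that of a called gene over the same libraries, so their own differences are not tested here.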

How the data were processed

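RNA of monocytes sorted from 3 BAFF and 3 control tumours was, per the labels' protocols, made into TruSeq RNA v2 libraries and read on an Illumina HiSeq. That kit does not mark strand. Partek, STAR 2.4.1d and Bowtie2 2.2.5 are named, with no role, in the submitters' processing notes. The build, annotation and counting rule were not given in the sources used here. The authors deposited 1 table in CPM, a unit read from its values: of values under 3 CPM, 81.4% to 86.8% were whole multiples of the library's own step (tolerance 0.02). Exact reads were therefore not recovered. Depth and the reads given for single genes are estimates, which cover counting error only. The column spelled "Conrol 2" was taken as control tumour 2.

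Limma-trend (limma 3.58.1, R 4.3.3) was fitted on log2(CPM + 1) of the 12824 genes averaging at least 1 CPM, with calls at a Benjamini-Hochberg adjusted p under 0.05, on deposited values and after RLE. On the deposited scale limma estimated infinite prior degrees of freedom, so SEs there do not reflect a gene's own spread. Floors are 3 reads. No 2 libraries of a group were alike to sampling noise (smallest chi-square per degree of freedom 8.11). Only the limma fit was run on simulated counts, with the same spread between replicates set for all genes, and the other steps were not.

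The members and lists were chosen with earlier results of these data known. Named genes are the 9 members, the 4 genes per pathway list with the smallest p, the 2 most abundant tested markers per list, and the 3 genes most like each called member. Of the 72 pathway and 88 marker entries, 19 were not matched. Alternatives were other size factors, filters, a pseudocount of 0.1, a replicate block, and leaving out libraries.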

Additional observations from a re-analysis of the deposited data

How the results depend on the processing

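The number of IL-1 family genes that rose was 2 on the deposited scale and 2 or 3 under the other size factors, the filters, the pseudocount of 0.1 and the replicate block, and 0 fell under any setting tried. Leaving out 1 library gave 0 (without BAFF tumour 1) to 6 (without control tumour 1) on the deposited scale and 3 to 4 after RLE. Chosen after seeing the data, the 4 shallower libraries gave 4 on the deposited scale and 2 after RLE, and RLE without control tumours 2 and 3 gave 2. Control tumour 1 is then the only control, and its spread is assumed to be that of the BAFF group.

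Of the pathway genes, 4 rose on the deposited scale, 14 after RLE or trimmed-mean factors, 10 with upper-quartile factors, 13 after RLE with the replicate block, and 0 to 47 with 1 library left out (10 to 13 with RLE). In the 4 shallower libraries 27 rose, or 7 after RLE, and 3 rose after RLE without control tumours 2 and 3. None fell on the deposited scale, 2 after each kind of size factors and after RLE with the block, 0 to 1 with 1 library left out (1 to 2 with RLE), and 1 after RLE without control tumours 2 and 3. Over all genes, 232 rose and 449 fell on the deposited scale, 921 and 1271 after RLE, 690 and 1388 with upper-quartile factors, 889 and 1282 with trimmed-mean factors, and 142 and 174 with a filter at 5 CPM.

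Il1a turned negative after RLE (-0.20), upper-quartile (-0.25) and trimmed-mean factors (-0.21), after RLE with the block (-0.20), and after RLE without control tumours 2 and 3 (-0.81). With 1 library left out, over both scales, it ranged from -0.57 to 0.57, Il18bp from -0.60 to 0.25, Il33 from -0.26 to 1.10 and Sigirr from -0.38 to 0.12. Il18bp was also positive in the 4 shallower libraries (0.067). After RLE without control tumours 2 and 3, Il1r1 (-0.30), Il33 (-1.15), Sigirr (-0.51) and Saa3 (-0.14) turned negative. None of these was called in a fit where its sign had changed, and the cause of these shifts was not tested.

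No pairing by replicate number was seen: same-numbered libraries had correlations of their deviations, after RLE, of -0.05, 0.05 and -0.04. These values do not tell whether same-numbered libraries shared a batch. With the replicate block Mefv was lost on the deposited scale (adjusted p = 0.0561), and after RLE Casp4 (0.0702) and Traf6 (0.0536) were lost and Saa3 passed (0.0453). With the block 170 genes rose and 438 fell over all genes on the deposited scale, and 781 and 1159 after RLE. In a balanced design the replicate block cannot change a difference of group means, so the within-library ratios (0.34, 1.06, -0.72 and -0.64 for Il1rn to Il1b, Il1rn to Il1a, Il1a to Il1b and Il18bp to Il18) were not tested by it. They kept their sign with a pseudocount of 1 and in all fits that left out 1 library.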
